A study of Sus scrofa with 12 samples.

Results

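The genes described here encode 2 precursors of opioid peptides, proenkephalin (PENK) and prodynorphin (PDYN), the mu and kappa opioid receptors (OPRM1 and OPRK1) and the cannabinoid receptor CB1 (CNR1). They were taken as every probe set of a pig expression array whose annotated gene symbol was 1 of these 5. This gave 10 probe sets among 47722, and the 5 genes were among 13755 symbols on the array. PENK and OPRM1 had 1 probe set each, PDYN had 2, and OPRK1 and CNR1 had 3 each. All 10 passed the filter on dim probe sets. The arrays (Affymetrix Snowball, a whole-transcript pig array) measured hypothalamus RNA of 12 pigs, all 140 days old, each on its own array. By label, 6 pigs had high and 6 had low feed efficiency, which is how well an animal turns feed into growth, and each group held 3 males and 3 females. The labels name no drug treatment or genetic modification. The sources used here do not give breed, castration, litter or time of sampling.

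Opioid peptides are cut from large precursors and act on receptors that couple to inhibitory G proteins. PENK yields mainly enkephalins, and PDYN yields dynorphins, which act mainly through the kappa receptor. In the hypothalamus of other mammals, dynorphin is made by vasopressin neurons, by orexin neurons and by the arcuate neurons that also release kisspeptin and neurokinin B. Endocannabinoids are lipids released by the postsynaptic cell that act back on CB1 receptors of nerve terminals and reduce transmitter release. Opioid and CB1 signalling both take part in the drive to eat, in pain and in stress responses.

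Every value is an array signal read as log2, so that a difference of 1 is a doubling. Signals of different probe sets are not compared with each other, since probes differ in how strongly they bind. The arrays had similar overall levels, with medians between 4.35 and 4.42. The 69 probe sets made to measure background had mean signals from 1.30 to 7.49. PENK, both PDYN probe sets, OPRM1, the brightest OPRK1 probe set and the brightest CNR1 probe set lay above that range, and the other 2 probe sets of OPRK1 and the other 2 of CNR1 lay within it, where a signal can be background. Of 15 hypothalamic marker genes measured, 7 lay above the background range, among them the oxytocin gene OXT (11.80 on average), the vasopressin gene AVP (11.55), CARTPT (9.20) and the orexin gene HCRT (8.29). Of 8 thalamus and habenula markers measured, 3 lay above it, and of 6 striatal markers, 1 did. Of 5 cortical, 4 anterior pituitary and 5 choroid plexus markers, none did.

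PENK had the narrowest range of the 6 probe sets above background. In high feed efficiency pigs its lowest, median and highest signals were 7.65, 7.71 and 7.89, and in low feed efficiency pigs 7.59, 7.70 and 7.85. The groups overlapped almost completely. The whole spread from the lowest to the highest of the 12 pigs was 1.23-fold, with an SD of 0.09. Of 3464 tested probe sets within 0.5 log2 units of its mean signal, 12.3% had a smaller SD over the 12 pigs. By sex and group, the means ran from 7.63 ± 0.05 (SD, n = 3) in low females and 7.72 ± 0.06 (SD, n = 3) in high females to 7.76 ± 0.11 (SD, n = 3) in high males and 7.78 ± 0.07 (SD, n = 3) in low males, and each neighbouring pair in this order overlapped. Low females, up to 7.687, lay below high males, from 7.691, and low males, from 7.718. This comparison was not planned and was not tested. The share of all probe sets with such a pattern was not computed.

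PDYN varied more between pigs than PENK, with an SD over the 12 pigs of 0.21 in 1 probe set and 0.19 in the other. Its brighter probe set (SNOWBALL_019243_s_st) gave lowest, median and highest signals of 8.31, 8.53 and 8.67 in high pigs and 8.17, 8.70 and 8.82 in low pigs. Its second probe set (SNOWBALL_019197_st) gave 7.58, 7.70 and 7.89 in high pigs and 7.18, 7.73 and 7.99 in low pigs. The low group held both the lowest and the highest pig in each. At similar signal, 82.2% of tested probe sets had a smaller SD than the brighter one and 80.1% had a smaller SD than the second. The lowest value in both was that of low feed efficiency replicate 6, a female, and the highest that of low feed efficiency replicate 4, also a female. Low replicate 6 also had the lowest PENK signal (7.59) and the lowest mean over the 15 hypothalamic markers, 7.02 against 7.12 to 7.27 in the other 11 pigs. Of the 15 markers, low replicate 6 was the lowest pig only for HCRT, AGRP, SIM1 and HDC, the last 3 of them within the background range. Its AVP (11.50) and OXT (11.91) lay inside the range of the other pigs. The mean of low replicate 6 over 4 anterior pituitary markers, none above the background range, was the highest, 5.88 against 3.79 to 5.24. What these marker levels contribute to its PDYN signal was not tested.

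The mu receptor gene OPRM1 (SNOWBALL_002061_st) gave lowest, median and highest signals of 7.58, 7.77 and 7.90 in high pigs and 7.73, 7.85 and 8.06 in low pigs. The 3 high males stood at 7.58, 7.68 and 7.76, below the 3 low males at 7.80, 7.88 and 7.94. Low and high males did not overlap, in either direction, for 14.3% of all tested probe sets. High females, at 7.79, 7.88 and 7.90, lay within the range of low females, at 7.73, 7.81 and 8.06. High males thus had the lowest mean of the 4 groups, 7.67 ± 0.09 (SD, n = 3), and the other 3 groups had means of 7.86 to 7.87 and overlapped.

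The 3 probe sets of the kappa receptor gene OPRK1 were only weakly correlated with each other over the pigs, as given further on. The brightest (SNOWBALL_023144_s_st) gave 7.63, 7.85 and 8.21 as the lowest, median and highest in high pigs and 7.68, 7.81 and 8.06 in low pigs, and the groups overlapped. Among males alone it was higher in high pigs (7.82, 7.87 and 8.21) than in low pigs (7.77, 7.80 and 7.82), by a gap smaller than 0.01 between the nearest pigs. Males did not overlap for 14.3% of all tested probe sets. The second (SNOWBALL_006041_st) lay between 7.08 and 7.33 in all 12 pigs, with group means of 7.19 in both. The third and dimmest (SNOWBALL_045388_st) was the only member probe set whose feed efficiency groups did not overlap, which held for 0.282% of all tested probe sets. It stood at 4.70 to 4.85, median 4.79, in high pigs and at 4.86 to 4.94, median 4.89, in low pigs. All low pigs thus lay above all high pigs, in both sexes, although the gap between the nearest pigs was about 0.01. Its signal lay well inside the background range, and its SD over the 12 pigs, 0.07, was smaller than that of nearly all of the 6339 probe sets of similar signal, of which 0.0631% had a smaller one. Their median SD was 0.25.

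CNR1 was also measured by 3 probe sets. The brightest (SNOWBALL_002354_st) had lowest, median and highest signals of 7.61, 7.93 and 8.22 in high pigs and 7.78, 8.02 and 8.10 in low pigs. SNOWBALL_036991_st gave 6.53, 6.73 and 7.11 in high pigs and 6.73, 6.86 and 6.91 in low pigs. SNOWBALL_042861_st gave 6.75, 7.17 and 7.36 in high pigs and 7.19, 7.28 and 7.65 in low pigs. All 6 low pigs lay above the mean of the high group in the last of these, yet the groups overlapped in all 3. In the last probe set the lowest values were those of 2 high males, 6.75 and 6.84, whereas the remaining high male stood at 7.32. The order of the 4 group means was high males lowest and low males highest in each of the 3 probe sets.

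**Figure D1:**
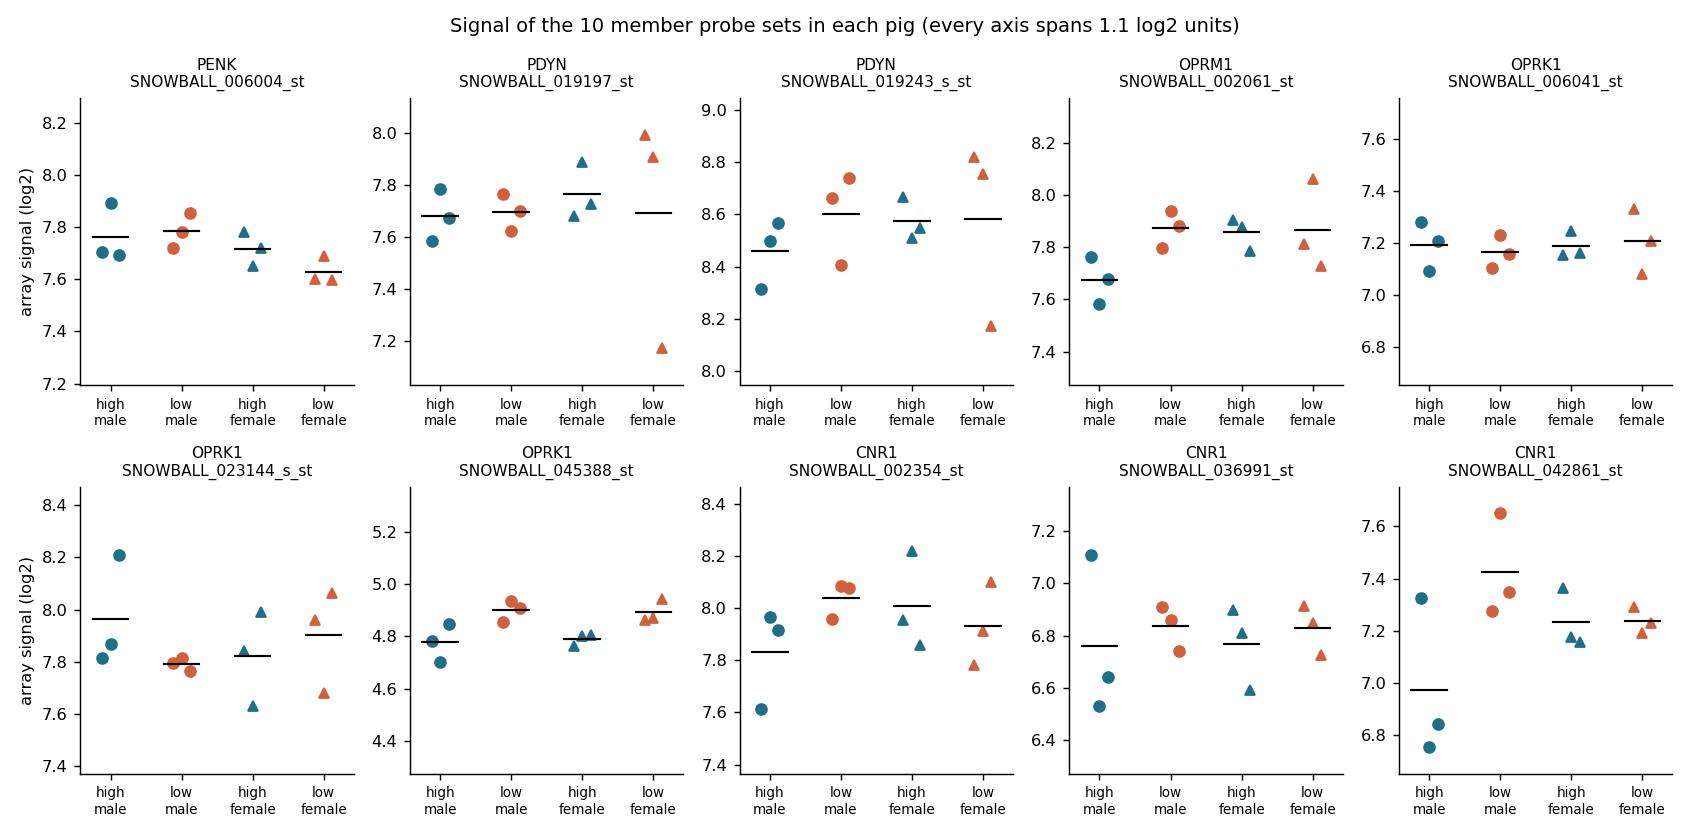
Array signal (log2) of each member probe set in each pig, by feed efficiency group and sex; circles are males, triangles females, blue high and orange low feed efficiency, and short horizontal lines are group means (n = 3). Only the dimmest OPRK1 probe set, SNOWBALL_045388_st, has all low pigs (4.86 to 4.94) above all high pigs (4.70 to 4.85), and low replicate 6 is the lowest point in both PDYN panels.

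The study's main question was whether hypothalamic transcripts differ between pigs of low and high feed efficiency. For the opioid and cannabinoid genes no difference passed the test, and the differences were small. In a limma fit with sex as a term, 0 of the 10 member probe sets were called at an adjusted p under 0.05, against 0% of all 35791 tested probe sets, and 0 of the 10 had an unadjusted p under 0.05, against 6.15% of all. The lowest adjusted p among them was 0.813. In bulk tissue, fewer cells of a type and less RNA per cell cannot be told apart.

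The low minus high difference of PENK was -0.03 ± 0.07 (SE), with a 95% interval from -0.18 to 0.11. PDYN differed by 0.08 ± 0.12 (SE) in its brighter and by -0.03 ± 0.13 (SE) in its second probe set. Without low replicate 6, the PDYN values were 0.17 and 0.09, and without low replicate 4 they were 0.03 and -0.09. OPRM1 differed by 0.10 ± 0.08 (SE), with 5 of 6 low pigs above the mean of the high group. The 3 OPRK1 probe sets gave -0.05 ± 0.10 (SE), -0.01 ± 0.07 (SE) and, for the dimmest, 0.11 ± 0.06 (SE; interval -0.01 to 0.24, limma adjusted p = 0.813). CNR1 gave 0.06 ± 0.10 (SE), 0.07 ± 0.10 (SE) and 0.23 ± 0.13 (SE; interval -0.05 to 0.50, limma adjusted p = 0.818). Without low replicate 2 the last value was 0.15, and without high replicate 1 the first was 0.00018.

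The 95% intervals of all 10 member probe sets, the widest running from -0.31 to 0.25 and from -0.05 to 0.50, excluded a 1.5-fold difference in array signal in either direction. This bounds the signal and not the transcript, above all for the 4 probe sets within the background range. PENK (mean 7.72), the second PDYN probe set (7.71), OPRM1 (7.82) and the brightest ones of OPRK1 (7.87) and CNR1 (7.95) lay little above its top of 7.49. Of the 10 probe sets 6 were higher in low pigs, with a median difference of 0.07. Over 12609 tested genes, each by its brightest probe set, 49.5% were higher in low pigs and the median was -0.0017. Non-overlapping groups were found for 1 of the 10 member probe sets and for 0.282% of all tested probe sets. Of 8 neuron markers 7 had a higher mean in low pigs, with none called, and the mean of the list ran from 8.38 to 8.58 in low and from 8.28 to 8.45 in high pigs. Their part in the receptor values was not tested.

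**Figure D2:**
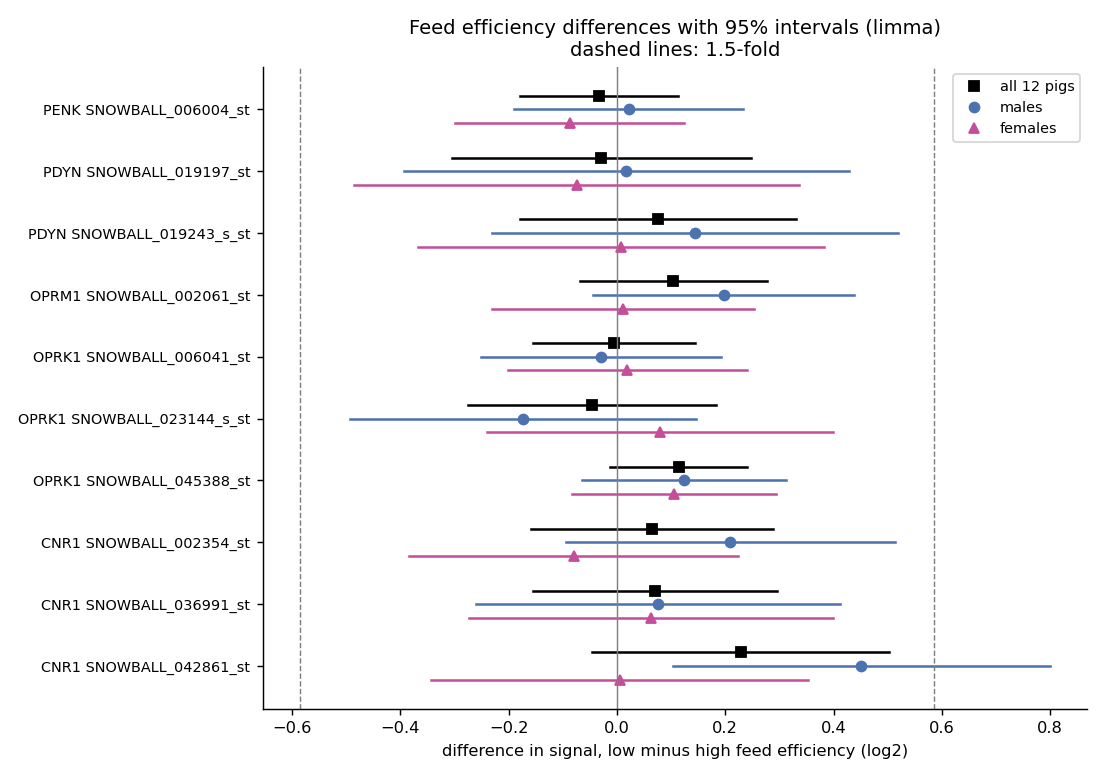
Low minus high feed efficiency difference (log2) of each member probe set with its 95% interval from limma, over all 12 pigs (black), in males (blue) and in females (pink); dashed lines mark a 1.5-fold change. Every black interval includes 0 and lies inside the dashed lines, and the interval of CNR1 SNOWBALL_042861_st in males runs from 0.10 to 0.80.

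In each of the 7 receptor probe sets, low and high males were further apart in mean than low and high females. In some the margin was small, as in OPRK1 SNOWBALL_045388_st (0.12 in males, 0.10 in females) and CNR1 SNOWBALL_036991_st (0.08 and 0.06). Of the precursors, PDYN SNOWBALL_019243_s_st went the same way (0.14 and 0.01). PENK (0.02 and -0.09) and PDYN SNOWBALL_019197_st (0.02 and -0.07) went the other way. Over all tested probe sets, low and high males did not overlap for 14.3% and females for 8.64%. The share of them with males further apart was not computed. No interaction between feed efficiency and sex passed the test. In males, CNR1 SNOWBALL_042861_st stood at 6.75, 6.84 and 7.32 in high and at 7.27, 7.35 and 7.65 in low pigs, a difference of 0.45 ± 0.16 (SE; limma adjusted p = 0.494). In females it stood at 7.16, 7.17 and 7.36 against 7.19, 7.23 and 7.29, a difference of 0.01 ± 0.16 (SE). In males the highest high pig lay above the lowest low pig, and in females the low range lay within the high range. The interaction, which is the female difference minus the male difference, was -0.45 ± 0.22 (SE; limma adjusted p = 0.841). OPRM1 differed by 0.20 ± 0.11 (SE) in males and by 0.01 ± 0.11 (SE) in females, with an interaction of -0.19 ± 0.15 (SE; limma adjusted p = 0.908). The brightest CNR1 probe set gave 0.21 ± 0.14 (SE) in males and -0.08 ± 0.14 (SE) in females, and the brightest OPRK1 probe set gave -0.17 ± 0.14 and 0.08 ± 0.14 (SE).

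No member was called for the interaction (0% of all tested probe sets called), within males (0.00838%) or within females (0%). At an unadjusted p under 0.05 there were 0 members for the interaction, 1 in males and 0 in females, against 6.07%, 8.82% and 4.18% of all tested probe sets. The groups did not overlap in males for 3 of the 10 probe sets (OPRM1 and the dimmest OPRK1 probe set with low pigs above, the brightest OPRK1 probe set with low pigs below) and in females for 1, against 14.3% and 8.64% of all. For 9 of the 10 in males and 10 of the 10 in females the interval excluded a 1.5-fold difference. For the interaction, which rests on 3 pigs per group, 5 of the 10 intervals excluded it.

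No member passed the test between females and males. PENK had the smallest unadjusted p of the members, with signals of 7.67 ± 0.07 (SD, n = 6) in females and 7.77 ± 0.08 (SD, n = 6) in males, a female minus male difference of -0.10 ± 0.07 (SE; limma adjusted p = 0.996). OPRM1 stood at 7.86 ± 0.12 in females and 7.77 ± 0.13 in males (SD, n = 6 each), a difference of 0.09 ± 0.08 (SE). Differences of the other 8 probe sets lay between -0.02 and 0.05. None of the 10 was called, against 0.0224% of all tested probe sets, none had an unadjusted p under 0.05, against 4.74%, and none separated the sexes without overlap, against 0.268%. The pig identifiers fall into a lower run of 8 pigs, with all 6 males and 2 females, and a higher run of 4 females, so the sex comparison is partly tied to this run, whose meaning is not given. With the run as a further term, the sex difference of the brightest CNR1 probe set was -0.07 instead of 0.03.

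Across the 12 pigs, no pair of the 5 genes passed a test of correlation. Each gene was represented by its brightest probe set, and 10 pairs were computed, with two-sided permutation p-values from 100000 resamples and Benjamini-Hochberg adjustment over the 10. The precursors PENK and PDYN gave a value close to 0 (r = 0.15, permutation p = 0.648, adjusted p = 0.739; Spearman rho = -0.0070, p = 0.991). Without low replicate 6, which was lowest in both, r was -0.19, and without the 2 pigs farthest from the median of PENK it was 0.09. PDYN and its receptor gene OPRK1 gave r = -0.24 (permutation p = 0.443, adjusted p = 0.739; rho = -0.23, p = 0.471). PENK and OPRM1 gave r = -0.12 (permutation p = 0.719, adjusted p = 0.739; rho = 0.07, p = 0.834), and the sign was positive in females (0.43) and without the 2 pigs farthest from the median of PENK (0.34). Within the feed efficiency groups the same pair gave 0.40 in low and -0.55 in high pigs.

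The 2 opioid receptors were the pair furthest from 0, with a negative sign (r = -0.61, permutation p = 0.0343, adjusted p = 0.343; rho = -0.68, p = 0.0189, adjusted p = 0.189). The adjusted values did not pass. The sign was negative in males (-0.49), in females (-0.80), in low pigs (-0.82), in high pigs (-0.49) and in the 8 pigs of the lower identifier run (-0.46). It was -0.75 without the 2 pigs farthest from the median of OPRM1, -0.57 with the means of the 4 groups removed (exact permutation within groups, p = 0.146), and between -0.76 and -0.53 without single pigs. With the 3 OPRK1 probe sets averaged it was -0.35. Both genes were on the same arrays, and OPRM1 gave a negative value with the mean of 6 striatal markers (r = -0.75, permutation p = 0.00713, adjusted p over 55 relations = 0.392; rho = -0.48, p = 0.122), which was -0.17 without the 2 pigs farthest from the striatal median. With the 4 endothelial markers OPRK1 gave r = 0.57 and OPRM1 gave r = -0.54 (permutation p = 0.0559 and 0.0690, adjusted p = 0.439 and 0.467; rho = 0.42 and -0.52, with p = 0.178 and 0.0888). Without the 2 pigs farthest from the endothelial median these were 0.17 and -0.36. OPRM1 and the 8 neuron markers gave r = 0.57 (permutation p = 0.0529, adjusted p = 0.439; rho = 0.66, p = 0.0230), with 0.95 in males, -0.04 in females and 0.30 without the 2 pigs farthest from the neuron median. The part of these markers in the OPRM1 and OPRK1 relation was not tested.

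Of the remaining pairs, PDYN and OPRM1 gave r = 0.40 (permutation p = 0.202; rho = 0.48, p = 0.115), and PENK and OPRK1, PENK and CNR1, PDYN and CNR1, OPRM1 and CNR1, and OPRK1 and CNR1 lay between -0.25 and 0.19 (permutation p from 0.441 to 0.739; rho from -0.36 to 0.12, with p from 0.257 to 0.766). Their adjusted p-values for r were all 0.739. Averaging the probe sets of a gene moved some of these values. OPRM1 and CNR1 then gave 0.69 (permutation p = 0.0125, adjusted p = 0.125) in place of 0.19. PENK and OPRK1 then gave -0.49 (permutation p = 0.106, adjusted p = 0.529) in place of -0.25. By the brightest probe sets, without averaging, OPRM1 and CNR1 gave -0.20 with the 4 group means removed. PDYN and CNR1 gave r = 0.60 in males, -0.66 in females, -0.71 in low and 0.55 in high pigs, each over 6 pigs. This contrast was picked out for its values and was not tested.

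Probe sets of the same gene showed how much of this rests on the probe set chosen. The 2 PDYN probe sets followed each other (r = 0.81, permutation p = 0.00128, adjusted p over 7 relations = 0.00896; rho = 0.68, p = 0.0186, adjusted p = 0.0652), in males (0.64) and females (0.89), with 0.84 after removing the 4 group means and 0.51 without the 2 pigs farthest from the median. For CNR1, the 2 dimmer probe sets gave the highest value without passing (r = 0.66, permutation p = 0.0209, adjusted p = 0.0730; rho = 0.70, p = 0.0147), whereas the brightest had r = -0.39 and 0.07 with them (permutation p = 0.211 and 0.821; rho = -0.36 and 0.03, with p = 0.257 and 0.936). The 3 OPRK1 pairs had r between 0.12 and 0.22 and none was called (permutation p from 0.490 to 0.708; rho from -0.04 to 0.19, with p from 0.560 to 0.903). The correlations of OPRK1 and CNR1 with other genes and with marker lists are those of their brightest probe sets, except where averaged ones are named.

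**Figure D3:**
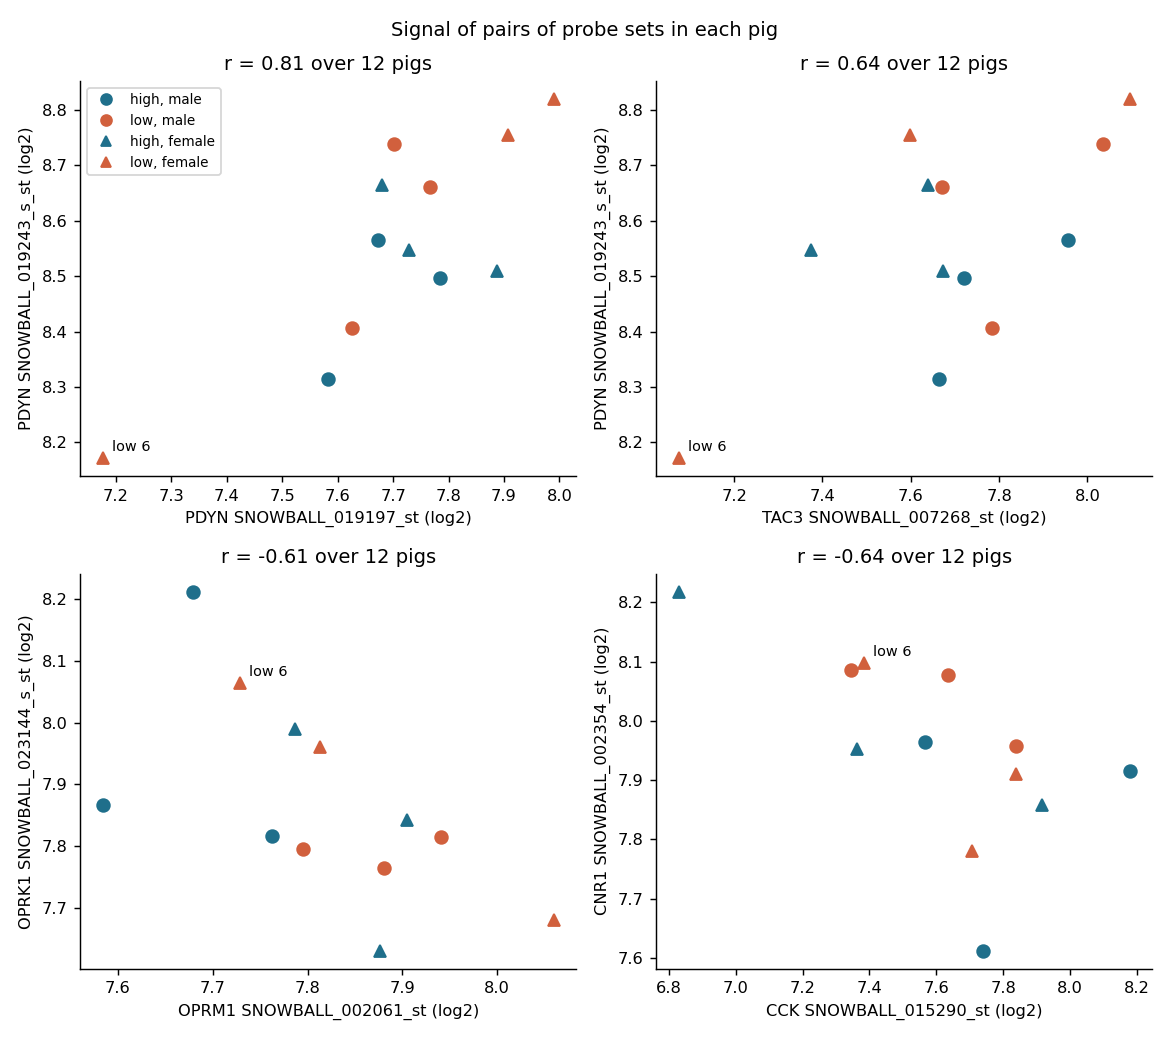
Signal (log2) of pairs of probe sets in each of the 12 pigs; circles are males, triangles females, blue high and orange low feed efficiency. The 2 PDYN probe sets follow each other (r = 0.81), and r is 0.64 for PDYN and TAC3 (0.37 without low replicate 6, which is marked), -0.61 for OPRM1 and OPRK1 and -0.64 for CNR1 and CCK.

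PDYN was next set against the peptides with which dynorphin shares neurons in other mammals, PENK against CRH, TRH and OXT, and CNR1 against CCK, the cholecystokinin gene of interneurons that carry CB1 in the rodent forebrain. These were 9 relations, adjusted together. With TAC3, the neurokinin B gene of arcuate neurons, PDYN gave r = 0.64 (permutation p = 0.0242, adjusted p = 0.126; rho = 0.36, p = 0.257, adjusted p = 0.770). TAC3 stood at 7.08 in low replicate 6 and at 7.37 to 8.10 in the other 11 pigs. Without that pig r was 0.37. Without the 2 pigs farthest from the PDYN median, low replicates 6 and 4, it was 0.13. Both are females, and r was 0.58 in the 6 males and 0.86 in the 6 females. It was 0.79 in low pigs and 0.0038 in high pigs, a contrast that was not tested. With the 4 group means removed it was 0.80 (exact permutation within groups, p = 0.0556, adjusted p = 0.25). KISS1, the kisspeptin gene of the same arcuate neurons, gave r = -0.22 with PDYN (permutation p = 0.497, adjusted p = 0.753; rho = -0.20, p = 0.546), at a mean signal within the background range (5.93).

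PDYN and AVP gave r = 0.40 (permutation p = 0.198, adjusted p = 0.445; rho = 0.45, p = 0.141), with 0.79 in males, 0.23 in females and 0.34 to 0.52 without single pigs. PDYN and HCRT gave r = 0.43 (permutation p = 0.168, adjusted p = 0.445; rho = 0.29, p = 0.356). HCRT was lowest in low replicates 6 and 1, at 7.91 in both, and without low replicate 6 r was 0.11. PDYN and OXT gave r = -0.08 (permutation p = 0.806, adjusted p = 0.943; rho = 0.10, p = 0.768). PENK gave r = 0.22, -0.05 and -0.02 with the corticotropin-releasing hormone gene CRH, the thyrotropin-releasing hormone gene TRH and OXT (permutation p = 0.502, 0.890 and 0.943, adjusted p = 0.753, 0.943 and 0.943; rho = 0.06, -0.13 and 0.11, with p = 0.850, 0.701 and 0.732). With the 4 group means removed, PENK and CRH gave 0.61 (exact permutation within groups, p = 0.0193, adjusted p over the 9 relations = 0.174), which did not pass. The pair gave -0.33 in low and 0.65 in high pigs, at a CRH signal within the background range (4.37).

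CNR1 and CCK gave r = -0.64 (permutation p = 0.0281, adjusted p = 0.126; rho = -0.71, p = 0.0130, adjusted p = 0.117). It was negative in males (-0.35), in females (-0.88), in low pigs (-0.68) and in high pigs (-0.66), at -0.57 without the 2 pigs farthest from the CNR1 median and -0.59 with the 4 group means removed (exact permutation within groups, p = 0.137). High replicate 5 had the highest CNR1 (8.22) and the lowest CCK (6.83), and without it r was -0.44. With the CNR1 probe sets averaged it was -0.54. CNR1 also gave a positive value with the 8 oligodendrocyte markers (r = 0.62, permutation p = 0.0362; rho = 0.55, p = 0.0671) and a negative one with the 6 astrocyte markers (r = -0.59, permutation p = 0.0416; rho = -0.63, p = 0.0322), with adjusted p = 0.439 for both r. All 8 oligodendrocyte markers had a positive and all 6 astrocyte markers a negative correlation with it. These list means ranged from 9.35 to 9.93 and from 10.16 to 10.48 over the pigs. Their part in the relation with CCK was not tested.

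For PDYN, the closest marker list was that of the hypothalamus (r = 0.63, permutation p = 0.0281, adjusted p = 0.439; rho = 0.54, p = 0.0750), with 11 of 15 genes positive. It was 0.61 without the 2 pigs farthest from the list's median, 0.89 in females and -0.06 in males. The list includes 6 of the partner peptides, so these values are not separate from those above. PENK gave r = 0.58 with oligodendrocyte markers (permutation p = 0.0485, adjusted p = 0.439; rho = 0.51, p = 0.0936) and 0.27 without the 2 pigs farthest from their median. With the 6 striatal markers, a region where enkephalin is abundant, PENK gave r = 0.27 (permutation p = 0.398, adjusted p = 0.836; rho = 0.09, p = 0.784). None of the 55 relations passed after adjustment.

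**Figure D4:**
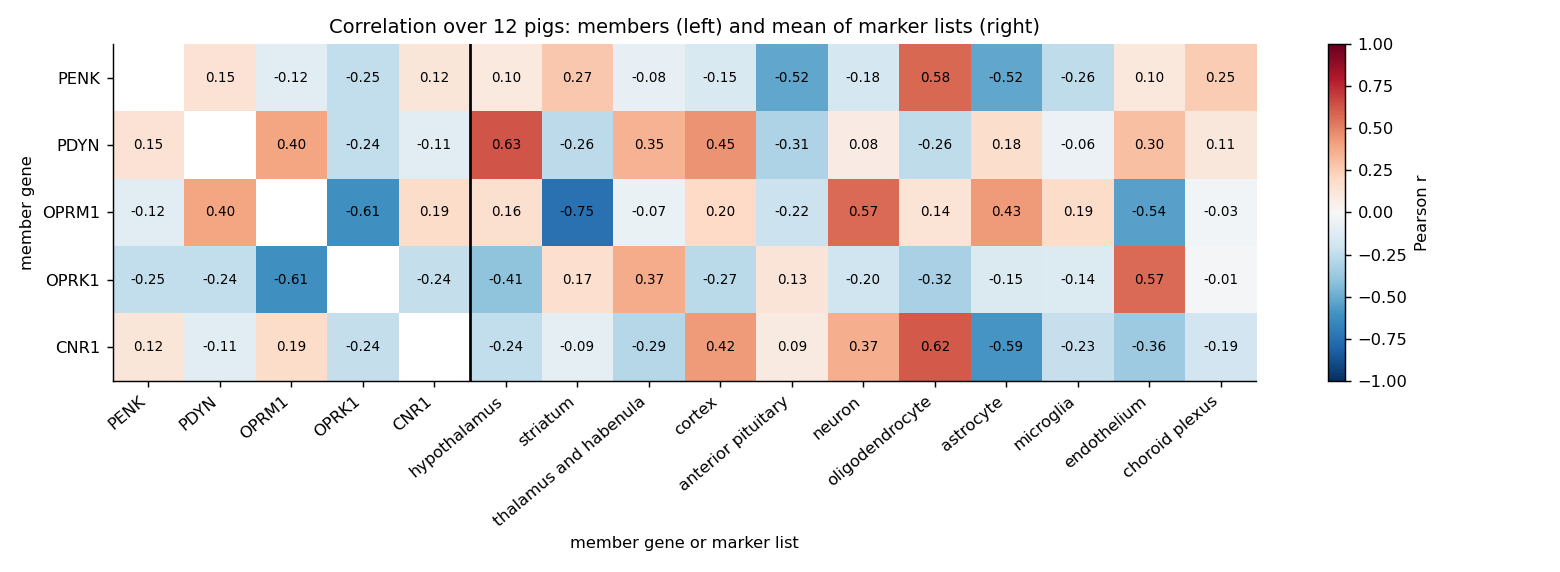
Pearson r over 12 pigs between the brightest probe sets of the 5 genes (left of the line) and between each gene and the mean of each marker list (right); red is positive, blue negative. The values furthest from 0 are OPRM1 with striatal markers (-0.75), PDYN with hypothalamic markers (0.63), CNR1 with oligodendrocyte markers (0.62) and OPRM1 with OPRK1 (-0.61), none past the adjusted threshold.

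Among 12604 other genes, those whose pattern over the 12 arrays was most like that of a member are given by Pearson r, as a description, since with 12 arrays some of so many genes reach a high r. For PENK these were LY96 (0.91), BAX (0.87), STK38L (0.85), MLYCD (0.83) and PLOD1 (0.83), and the most opposed were ZNF175 (-0.90), RNF41 (-0.89) and GLCCI1 (-0.88). For PDYN they were RNF19B (0.89), the kinase gene MAP2K1 (0.84), RAB15 (0.83), NUP205 (0.82) and JTB (0.82), against MIR143 (-0.88), NAB2 (-0.87) and MIR331 (-0.87). OPRM1 was closest to ACAP2 (0.93), SEL1L (0.91), APPL1 (0.90), EIF1AY (0.89) and GPR21 (0.87), and most opposed to ALG12 (-0.94), NDUFA4L2 (-0.87) and ARPC1B (-0.85). OPRK1 was closest to CTNND1 (0.87), TMCO3 (0.87), ETV6 (0.86), the calcium channel gene CACNA1C (0.85) and UBAC2 (0.84), and most opposed to MESP2 (-0.89), GPR180 (-0.87) and ATP2A3 (-0.86). CNR1 was closest to the potassium channel gene KCNA6 (0.92), DIP2A (0.87), SH3PXD2A (0.86), GAPVD1 (0.83) and UCK2 (0.83). The genes most opposed to it were KCNIP1 (-0.88), KIF22 (-0.87) and KCNA10 (-0.87). Of all these genes PLOD1, SEL1L, APPL1, ARPC1B, UBAC2, GPR180, KCNA6 and KCNIP1 had mean signals above the background range, and the others lay within it.

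No other gene of the opioid and endocannabinoid pathways passed the test between low and high pigs. Of 56 further tested genes, each by its brightest probe set, 0 were called by limma (lowest adjusted p = 0.799) and 4 had an unadjusted p under 0.05, namely ABHD4, GNAO1, KCNIP3 and JUN, against 693 of 12609 tested genes. In all, 20 of the 56 had a higher mean in low pigs (35.7%) against 6238 of 12609 tested genes (49.5%), and their median difference was -0.06. Differences ran from -0.26 to 0.22. The pathway genes named below were those with the smallest unadjusted p in their list. Where all low pigs lay on the same side of the high mean, this was partly a result of that choice. Of the named pathway genes and partner peptides, OGFR, WLS, FURIN, MME, ANPEP, CNR2, CNRIP1, TRPV1, DAGLB and PLA2G4E had mean signals within the background range. So had PTGS2, NAAA, ADCY1, GNAI3, RGS7, JUN, KISS1 and CRH. Such signals can be background. The other named ones lay above the range, PNOC only just, with a mean of 7.491 against a highest background mean of 7.488. The genes of pro-opiomelanocortin and of the delta and nociceptin receptors (POMC, OPRD1 and OPRL1) were not analysed here.

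Among the other precursors and receptors, PNOC, which encodes the nociceptin precursor, stood at 7.54 ± 0.27 in high and 7.44 ± 0.32 in low pigs (SD, n = 6 each), a difference of -0.11 ± 0.17 (SE). OGFR, the receptor of the opioid growth factor, differed by -0.06 ± 0.09 (SE) and WLS, which binds the mu receptor, by 0.01 ± 0.20 (SE). Of 5 processing genes, 2 were higher in low pigs. SCG5, the chaperone of the convertase PC2, differed by 0.11 ± 0.07 (SE), PCSK1N, an inhibitor of the convertase PC1, by -0.15 ± 0.10 (SE) and the protease gene FURIN by -0.11 ± 0.08 (SE). Of 6 genes of opioid peptide breakdown, 1 was higher. ECE1 differed by -0.12 ± 0.08 (SE), with all 6 low pigs below the mean of the high group, MME (neprilysin, which cleaves enkephalin), at a signal near the limit of the filter (2.49), by -0.13 ± 0.11 (SE) and the aminopeptidase gene ANPEP by 0.06 ± 0.07 (SE).

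On the endocannabinoid side, 3 of the 5 tested synthesis genes were lower in low pigs, with a median of -0.13. ABHD4, a lipase of the anandamide route, stood at 8.90, 9.10 and 9.29 (lowest, median and highest) in high pigs and at 8.68, 8.91 and 9.11 in low pigs. All 6 low pigs lay below the mean of the high group, but the groups overlapped, and the difference was -0.22 ± 0.09 (SE), which did not pass. DAGLB, a lipase that makes 2-arachidonoylglycerol, differed by -0.26 ± 0.13 (SE), and by -0.14 without high replicate 3, whose signal of 6.50 was the highest. PLA2G4E differed by -0.13 ± 0.08 (SE). Of 8 breakdown and transport genes 3 were higher in low pigs. MGLL, the main 2-arachidonoylglycerol hydrolase, was lower, with -0.15 ± 0.09 (SE). NAAA differed by 0.08 ± 0.11 (SE) and PTGS2 (cyclooxygenase-2), at a signal near the limit of the filter (2.63), by 0.22 ± 0.13 (SE). CNR2, the CB2 receptor gene, differed by -0.21 ± 0.12 (SE) at a signal within the background range (3.59). CNRIP1, which encodes a protein that binds the tail of CB1, differed by 0.12 ± 0.07 (SE) and the vanilloid receptor gene TRPV1 by -0.07 ± 0.11 (SE).

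Of 12 G protein and effector genes, 4 were higher in low pigs and the median was -0.10. GNAO1, the alpha subunit of the G protein Go, stood at 11.37, 11.49 and 11.58 in high pigs and at 11.13, 11.26 and 11.56 in low pigs, a difference of -0.20 ± 0.09 (SE; limma adjusted p = 0.799). The groups overlapped. ADCY1, an adenylyl cyclase, differed by -0.15 ± 0.07 (SE) and GNAI3 by -0.18 ± 0.10 (SE). Receptor desensitisation genes were split evenly, 3 of 6 higher, with RGS7 at 0.12 ± 0.08 (SE), ARRB2 (beta-arrestin 2) at -0.06 ± 0.08 (SE) and RGS4 at 0.04 ± 0.06 (SE).

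Among 5 regulators of the precursor genes, KCNIP3, whose product DREAM represses PDYN in the mouse, stood at 8.46, 8.71 and 9.08 in high pigs and at 8.26, 8.47 and 8.65 in low pigs. All 6 low pigs lay below the mean of the high group, the groups overlapped, and the difference was -0.26 ± 0.11 (SE; limma adjusted p = 0.799). JUN differed by 0.19 ± 0.08 (SE; limma adjusted p = 0.804) and CREB1, which activates PENK, by 0.13 ± 0.09 (SE), each with all 6 low pigs above the mean of the high group. These regulators were named for the smallest unadjusted p in their list, which favours such a placing of the pigs. The share of all tested genes with such a placing was not computed. The partner peptides differed by at most 0.14 in size, from -0.14 ± 0.12 (SE) for HCRT to 0.13 ± 0.14 (SE) for AVP, with 4 of 8 higher in low pigs. OXT, TAC3, KISS1, CRH, TRH and CCK differed by -0.07 ± 0.17, 0.04 ± 0.15, -0.06 ± 0.11, 0.01 ± 0.15, -0.08 ± 0.09 and 0.03 ± 0.19 (SE).

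**Figure D5:**
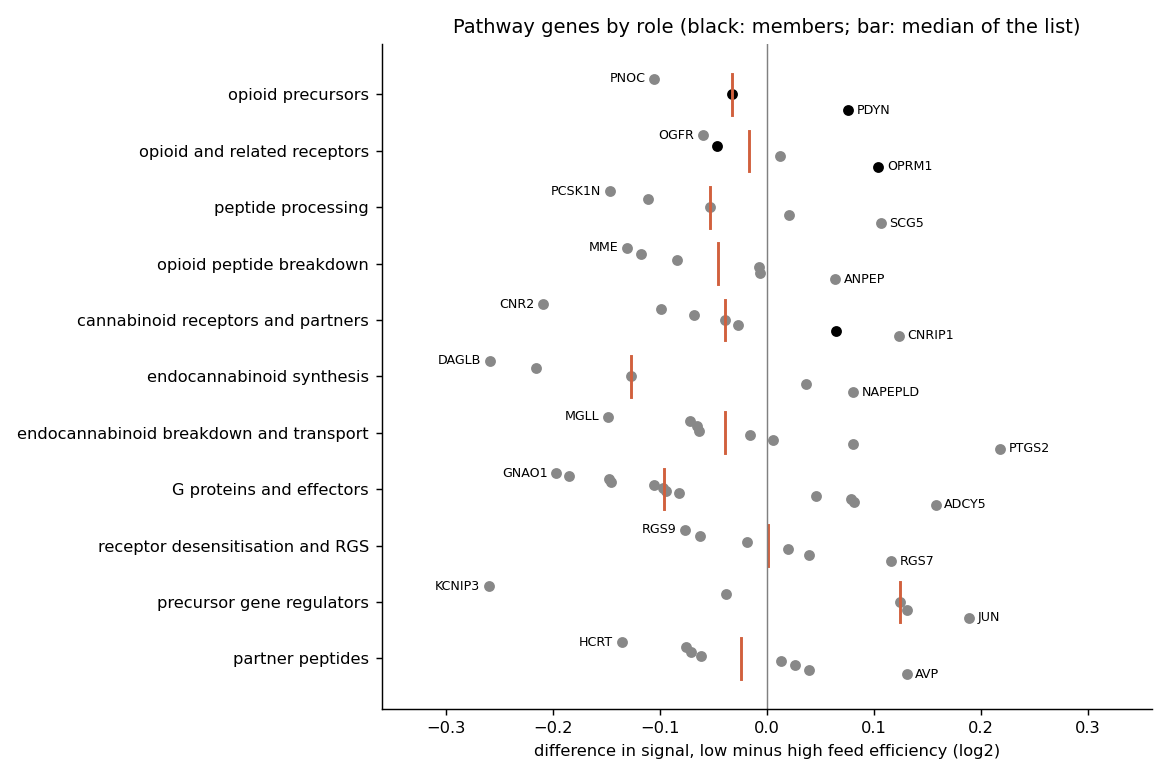
Low minus high feed efficiency difference (log2) of each tested pathway gene by role; black points are PENK, PDYN, OPRM1, OPRK1 and CNR1, grey points other genes, and orange bars list medians. All differences lie between -0.26 and 0.22 and none was called.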

How the data were processed

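Hypothalamus RNA of 12 pigs was measured on 12 arrays, and replicates were numbered in accession order. The values deposited by the authors, 1 per probe set and array, were taken as log2 from their range. GCOS version 1.1.1 is named per the submitters' processing notes, and the sources used here do not give the background correction or normalization. The 123 control rows and the 25 percent of probe sets with the lowest mean (limit 2.43) were left out, leaving 35791. Platform annotation gave 1 symbol to 26426 rows, several to 0 and none to 21419. The fits used limma version 3.58.1 in R version 4.3.3, with sex as a term or over the 4 groups, and Benjamini-Hochberg adjustment over all 35791 at a threshold of 0.05, and were tested on simulated data. Each gene was represented by the tested probe set with the highest mean. The number of arrays limits the precision. Correlations used numpy version 2.4.6, and figures matplotlib version 3.10.9. Arrays correlated at 0.974 to 0.982, with no duplicates.

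The members and lists were chosen with earlier results of these data known. Named were all members, 8 partner peptides, up to 3 genes per pathway list with the smallest unadjusted p, and for each member the 5 most alike and 3 most opposed genes. Marker lists also covered thalamus and habenula, and microglia. The p-values for marker lists and for probe sets of the same gene, and the values by identifier run and feed efficiency group, were added after the data were seen. Alternatives were the filter, normalization, moderation, array weights, averaged probe sets, no covariate, the identifier run, a threshold of 0.1, subsets of pigs and single pigs left out.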

Additional observations from a re-analysis of the deposited data

Results flagged for a closer look

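In 90 combinations of a probe set and a feed efficiency group of 6 pigs, 2 held a pig that stood apart from the others beyond Dixon's 95% critical value. Chance alone flags about 1 in 20 groups. Low feed efficiency replicate 2 had a CNR1 signal of 7.65 in SNOWBALL_042861_st, against 7.19 to 7.35 in the other low pigs, and the difference between the groups in this probe set was 0.15 without it and 0.23 with it. Low feed efficiency replicate 5 had an ADCY1 signal of 6.46, against 6.16 to 6.25 in the other low pigs.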

How the results depend on the processing

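No paired analysis was possible because replicates were numbered in accession order and the labels give no number shared between groups. No member or named gene passed for feed efficiency, and no member for sex or the interaction, under any alternative run, with adjusted p from 0.604 to 1.0. No correlation among members or with partner peptides passed either, with a lowest adjusted p of 0.0625. Feed efficiency differences kept their direction in 436 of 440 values under other settings and in 513 of 540 without single pigs. With a gene's probe sets averaged, OPRK1 was 0.021 and ANPEP -0.053 for feed efficiency, OPRK1 was 0.00095 for sex, and r of PENK and CNR1 was -0.15. Array weights gave CRH -0.00054. Equal array medians gave OPRK1 SNOWBALL_006041_st 0.016, and r of 0.074 for PENK and OPRM1 and 0.061 for PENK and TRH. The identifier run as a term gave sex differences of 0.022 for OPRK1 and -0.068 for CNR1. Probe sets called for sex numbered 8, but 2 with the dimmest 50 percent left out, 0 with averaged probe sets (limma) and 5 with the identifier run. The averaged setting also left out probe sets without a symbol. Of 12609 genes by their brightest probe sets, 0 were called for sex without averaging. With the 4 group means removed, r was 0.11 for PENK and OPRM1 and -0.20 for OPRM1 and CNR1. In females r was 0.43 for PENK and OPRM1, -0.17 for PENK and CNR1, -0.089 for OPRM1 and CNR1, 0.18 for PENK and TRH and 0.12 for PENK and OXT. In males it was 0.60 for PDYN and CNR1, -0.11 for PDYN and HCRT and 0.038 for PENK and TRH. Without the 2 pigs farthest from the median of the first gene it was 0.34 for PENK and OPRM1, -0.038 for PENK and CNR1, 0.32 for PDYN and CNR1 and 0.11 for PENK and OXT. The cause was not tested for any of these. Of the 45 feed efficiency differences, none of them called, leaving out 1 pig turned the direction of 9 and moved another 22 by over 1.5 times. Without single pigs, probe sets called for feed efficiency ranged from 0 to 1, the 1 without low replicate 2, and differences from -0.10 to 0.022 for OPRK1, -0.036 to 0.020 for OPRK1 SNOWBALL_006041_st, -0.090 to 0.090 for PDYN SNOWBALL_019197_st, -0.21 to 0.0056 for PNOC, -0.11 to 0.19 for WLS, -0.19 to 0.031 for OXT, -0.072 to 0.15 for TAC3, -0.12 to 0.087 for CRH and -0.12 to 0.13 for CCK. Sex differences ranged from -0.067 to 0.052 for OPRK1 and -0.030 to 0.083 for CNR1, and the interaction from -0.25 to 0.070 for PDYN. Values of r ranged from -0.19 to 0.41 for PENK and PDYN, -0.24 to 0.35 for PENK and OPRM1, -0.027 to 0.30 for PENK and CNR1, -0.55 to 0.10 for PDYN and CNR1, -0.22 to 0.064 for PDYN and OXT, -0.40 to 0.036 for PDYN and KISS1, -0.17 to 0.021 for PENK and TRH and -0.21 to 0.17 for PENK and OXT. Signals within the background range limit what 4 of the 10 member probe sets say of their transcripts, and most of the others lay little above that range.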
